A study of Mus musculus with 26 samples.

Results

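The cadherin and protocadherin genes of the mouse choroid plexus (ChP) were taken as all genes whose symbol starts with Cdh and a digit or with Pcdh and whose mean reached 1 CPM (estimated counts scaled to the same library total) in the group Ctrl and also in the group SCNx. Of 93 genes with such symbols in the deposited table, 50 met this minimum, 12 cadherins and 38 protocadherins, and 43 did not. Ctrl were 12 sham-operated adult male C57Bl6J mice and SCNx were 12 such mice whose suprachiasmatic nuclei (SCN), the seat of the central circadian clock, had been destroyed on both sides by electrolytic lesion. Both groups spent the last week in 12:12 light and darkness, until the lights stayed off at the hour named circadian time 0 (CT0). In the darkness that followed they were sampled at intervals of 4 h from CT0 to CT44, with 1 mouse per time. The ChP of the 4th ventricle was removed with pincers. KO were 2 adult males of genotype FoxJ1-ERT2-Cre+/-; Bmal1fl/fl, in which a tamoxifen diet activates a Cre driven by the promoter of Foxj1, a gene of cells with motile cilia, and deletes part of the clock gene Bmal1. The KO mice lived in 12:12 light and darkness and were killed 7 h (ZT7) and 18 h (ZT18) after lights on. Their ChP was cut by laser from frozen brain sections and went through another library kit for total RNA. By the account of the study they were also older and kept at another site, and their RNA had a lower average integrity. No surgery is described for them. Genotype, tamoxifen, age, site, surgery, light regime, dissection, RNA integrity and kit thus cannot be told apart in any comparison with KO.

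Cadherins are membrane proteins that bind their own kind on the neighbouring cell through calcium-dependent extracellular repeats. Classical cadherins carry catenins on their cytoplasmic side, which link adherens junctions to actin, and in the ChP such junctions hold together the epithelium that secretes cerebrospinal fluid. Most protocadherins lack the catenin-binding tail. Those of the clusters Pcdha, Pcdhb and Pcdhg lie in arrays in which each variable exon has its own promoter, and in Pcdha and Pcdhg all variable exons are spliced to shared constant exons, so short reads from the constant part cannot be assigned to 1 gene and the estimate divides them. Counts of single clustered genes are therefore uncertain, and the clusters were also summed.

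Among the 50 members were 4 of 5 listed type I classical cadherins (Cdh1, Cdh2, Cdh3 and Cdh4), 7 of 13 type II cadherins (Cdh5, Cdh6, Cdh10, Cdh11, Cdh18, Cdh19 and Cdh24) and Cdh13, which has a lipid anchor in place of a cytoplasmic tail. The non-clustered protocadherins were the delta-1 members Pcdh1, Pcdh7 and Pcdh9, the delta-2 members Pcdh10, Pcdh17, Pcdh18 and Pcdh19, and the endothelial Pcdh12. From the clusters, all on chromosome 18, came 1 of 14 Pcdha genes (Pcdhac2), 7 of 22 Pcdhb genes (Pcdhb14, Pcdhb16, Pcdhb17, Pcdhb18, Pcdhb19, Pcdhb20 and Pcdhb22) and all 22 Pcdhg genes, which are 12 of type A (Pcdhga1 to Pcdhga12), 7 of type B (Pcdhgb1, Pcdhgb2, Pcdhgb4, Pcdhgb5, Pcdhgb6, Pcdhgb7 and Pcdhgb8) and 3 of type C (Pcdhgc3, Pcdhgc4 and Pcdhgc5). The members nearest to the minimum were Cdh4, with a mean of 1.07 CPM in Ctrl and 1.56 in SCNx, and, just outside, Cdh17, with 1.08 in Ctrl and 0.93 in SCNx.

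Libraries of Ctrl and SCNx held between 38751201 and 49527655 estimated counts and the KO libraries 17425207 and 18059227. The members together took 736 to 957 CPM in Ctrl, 752 to 1314 in SCNx and 795 to 1001 in KO. The 10 markers of ChP epithelium were all present and summed to 141476 to 170322 CPM in Ctrl and 114497 to 163387 in SCNx, against 86958 and 82572 in KO. SCNx CT32 and Ctrl CT4 stood apart by transcripts of surrounding brain. The 11 markers of neurons and cerebellum summed to 457 CPM in SCNx CT32 and to 339 in Ctrl CT4, against at most 82.5 in any other SCNx and 56.0 in any other Ctrl library, and the 5 astrocyte markers to 716 and 341, against at most 293 and 168. The 5 oligodendrocyte markers summed to 281 CPM in SCNx CT32, against at most 99.1 in any other SCNx library. In Ctrl they set CT4 less apart, with 148 there and 129 in CT44. Ctrl CT44 also held the neuron sum of 56.0, while its astrocyte sum of 120 was the lowest in Ctrl. In KO the neuron markers summed to 284 and 414 and the astrocyte markers to 558 and 662. Aldh1l1 had a median of 112 CPM in Ctrl, where the median of the astrocyte sum was 147. It was lower in KO, at 78.2 and 86.2, while Gfap, Aqp4, Slc1a3 and Gja1 were higher. Schwann cell markers reached 29.4 CPM in SCNx CT32 and 11.2 in Ctrl CT4. Liver genes (7 markers) reached 9939 CPM in SCNx CT0 and 1691 in Ctrl CT16, the same libraries that held the astrocyte sums of 293 and 168. Fits of levels and rhythms are also given without SCNx CT32 and Ctrl CT4, but the hours of the fitted peaks were not counted without them. The fit without the libraries rich in liver genes is given at the end.

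To compare levels between genes, mean CPM was divided by the length of the merged exons in kb, taken from GENCODE M21, an annotation of another genome build than the files (CPM per kb). On this scale Pcdhgc3 was the highest member in Ctrl with 42.3, followed by Cdh3 with 23.6, Pcdh7 with 13.3, Pcdhgc4 with 9.92 and Pcdhgb6 with 8.05, and these genes had the same ranks in SCNx. Cdh5 with 5.54 and Cdh11 with 4.96 came next, then Pcdhga10 with 3.53, Pcdhga7 with 3.41 and Pcdhga6 with 2.91, and the lowest of the 50 was Cdh13 with 0.10. The delta-2 members reached at most 1.36 (Pcdh18) and the Pcdhb members at most 1.16 (Pcdhb22). Pcdhgc3, a type C protocadherin whose cytoplasmic part is known to bind Axin1 of the WNT pathway, had a mean of 232 ± 19.3 CPM in Ctrl and 222 ± 19.2 in SCNx (SD, n = 12 each). Pcdh7 had 141 ± 13.4 and 138 ± 13.4, Pcdhgc4 had 55.5 ± 11.2 and 51.8 ± 13.2, and Pcdhgb6 had 37.7 ± 3.72 and 39.2 ± 4.94. For each of these genes the ranges of Ctrl and SCNx overlapped and the means differed by less than 1 SD. Cdh1 (E-cadherin) had 8.61 ± 3.92 CPM in Ctrl and 8.25 ± 2.39 in SCNx, which is 1.88 per kb in Ctrl, so that among the type I cadherins Cdh3 (P-cadherin) stood above Cdh2 (N-cadherin, 1.93 per kb) and Cdh1, while Cdh2 and Cdh1 did not differ beyond the spread between mice.

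The first question was which members cycle over the day. A curve with a 24 h cosine and sine per group was fitted to the counts of all 24 libraries, and its amplitude is given as the distance on the log2 scale from the mean to the peak, with a SE from the spread around the curve. In Ctrl 8 of the 50 members had a 24 h rhythm (edgeR's quasi-likelihood F test, Benjamini-Hochberg adjusted p under 0.05), which is 16% of the members beside 10.7% of the 13697 genes tested. These were Cdh3, Cdh11, Cdh18 and Cdh19 of the classical cadherins, Pcdhac2 of the Pcdha cluster, and Pcdhgc5, Pcdhga7 and Pcdhga10 of the Pcdhg cluster. None of the 8 non-clustered protocadherins and none of the 7 Pcdhb members passed. In SCNx 0 of the 50 members passed with edgeR's quasi-likelihood test, beside 0% of the genes, and 16 had an unadjusted p under 0.05, a share of 32% beside 14.8% of the genes. DESeq2 called 5 members in SCNx (Cdh10, Cdh19, Pcdh9, Pcdh17 and Pcdh19). Its share over all genes is not given here, so these calls are no result about the members as a set. The 5 smallest p in SCNx were those of Pcdh19 (0.0016), Cdh19 (0.0016), Pcdh17 (0.0029), Pcdh9 (0.0051) and Cdh10 (0.0061), before adjustment by Benjamini-Hochberg in edgeR, and all 5 genes were highest in SCNx CT32.

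**Figure D1:**
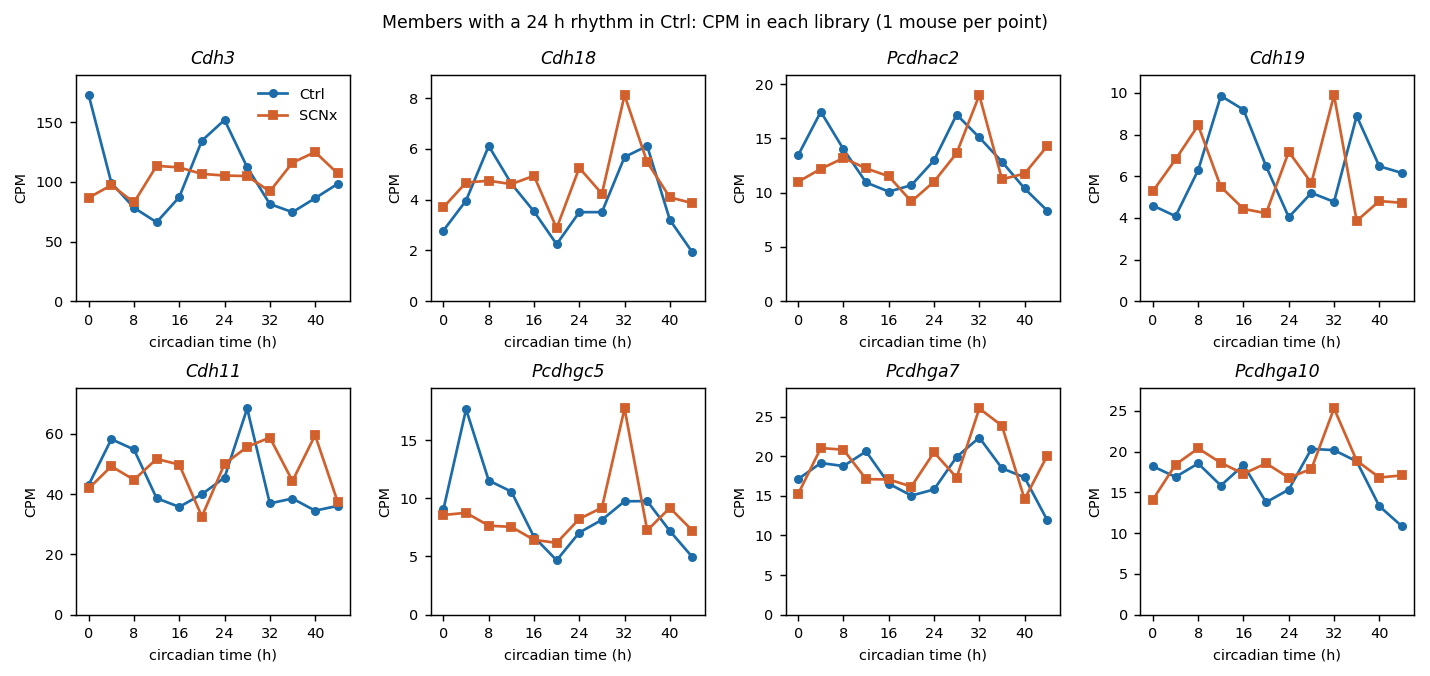
CPM (y axis) against circadian time in h (x axis) for the 8 members with a 24 h rhythm in Ctrl, with 1 mouse per point, Ctrl as blue circles and SCNx as orange squares. In Ctrl, Cdh3 was highest at CT0 (173 CPM) and Cdh19 at CT12 (9.86 CPM), and in SCNx 6 of these genes were highest at CT32.

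Cdh3, coding for P-cadherin of epithelial junctions, had the smallest p (ENSMUSG00000061048, chromosome 8). In Ctrl it lay between 66.2 CPM at CT12 and 173 at CT0, with a median of 92.8, and on the other day the values were 152 at CT24 and 74.6 at CT36. The highest libraries were those around subjective dawn on both days and the lowest those around CT12 and CT36. The fitted log2 amplitude was 0.55 ± 0.07 (SE, n = 12), a peak 2.16-fold above the trough, with the peak 23.7 h after CT0 and an edgeR adjusted p of 1.42e-05. In SCNx its values lay between 82.8 and 125 CPM with a median of 106, within the Ctrl range, and the amplitude was 0.17 ± 0.06 (edgeR adjusted p = 0.27). The rhythms of Ctrl and SCNx differed for Cdh3 (log2 size of the difference 0.61, edgeR adjusted p = 0.0011). The mean levels differed by less than the spread, with 104 ± 33.2 CPM in Ctrl and 104 ± 12.4 in SCNx (log2 fold change 0.01 ± 0.13, SE, edgeR adjusted p = 0.99). Melanocytes also express Cdh3, and their 4 markers summed to 88.8 CPM in Ctrl CT0 and 104 in Ctrl CT44, against a median of 8.04, while Cdh3 had 173 and 98.4 CPM there. Without Ctrl CT0 the amplitude of Cdh3 was 0.50 (edgeR adjusted p = 7.6e-05), and without Ctrl CT44 it was 0.59.

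Cdh19, a type II cadherin known from Schwann cells and other derivatives of the neural crest, was the other member whose rhythm differed between the groups (ENSMUSG00000047216, chromosome 1). Members with such a difference thus numbered 2 of 50, 4% beside 2.12% of the genes tested, and 6 of 50 had an unadjusted p under 0.05, beside 15.1%. In Ctrl it lay between 4.04 CPM at CT24 and 9.86 at CT12, with a median of 6.22. The highest Ctrl values were at CT12, CT16 and CT36, and the fit gave an amplitude of 0.52 ± 0.09, a peak at 13.9 h and an edgeR adjusted p of 0.0049. In SCNx the range was 3.86 to 9.89 CPM with a median of 5.39, and the highest values were at CT8 and CT32. The amplitude in SCNx was 0.42 ± 0.12 with a peak at 5.39 h (unadjusted p = 0.0016, edgeR adjusted p = 0.15). The difference of the rhythms had a log2 size of 0.85 and an edgeR adjusted p of 0.0082. The Schwann cell markers lay between 3.38 and 5.98 CPM in the other 11 Ctrl libraries, and in Ctrl CT4, where they reached 11.2, Cdh19 had 4.08 CPM. In SCNx CT32 the Schwann cell markers had 29.4 CPM and Cdh19 its highest SCNx value. Without Ctrl CT4 and SCNx CT32 both calls for Cdh19 and both for Cdh3 remained.

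Cdh18, a type II cadherin known mainly from neurons, had the largest amplitude of the 50 members in Ctrl (ENSMUSG00000040420). Its promoter is shown as that of the rhythmic member for which the RefSeq promoter table had an entry. It covers chr15:23036213-23036512 of GRCm38.p6 on the + strand, a window of 300 bases around the start of the gene, written 5′ to 3′ with a match to AGGTCA, the core of the element bound by ROR and REV-ERB receptors, which lies on the opposite strand, in capitals.
Cdh18: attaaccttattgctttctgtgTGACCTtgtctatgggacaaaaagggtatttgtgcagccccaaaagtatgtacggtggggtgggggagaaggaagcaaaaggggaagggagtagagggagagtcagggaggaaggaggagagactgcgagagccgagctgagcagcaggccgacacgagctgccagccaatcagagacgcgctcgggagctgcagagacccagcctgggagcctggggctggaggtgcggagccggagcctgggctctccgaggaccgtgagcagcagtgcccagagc
AGGTCA on either strand occurred in 16.3% of 32851 promoters of this length, and the clock motifs CACGTG (E-box) and TTANGTAA (D-box), found in 7.15% and 2.32%, were not in the Cdh18 window. Promoters were matched for 10 members (Cdh6, Cdh10, Cdh18, Cdh24, Pcdh7, Pcdh9, Pcdh10, Pcdh17, Pcdh18 and Pcdh19), and none of the other 9 held any of these motifs. Cdh18 lay between 1.92 CPM at CT44 and 6.12 at CT36 in Ctrl, with a median of 3.52, and it was highest at CT8, CT32 and CT36. The amplitude was 0.68 ± 0.09, a peak 2.57-fold above the trough, with the peak at 8.88 h and an edgeR adjusted p of 0.00057. In SCNx the range was 2.88 to 8.12 CPM with a median of 4.64, the highest value was at CT32, and the amplitude was 0.30 ± 0.12 with a peak at 8.42 h (edgeR adjusted p = 0.27). For Cdh18 the difference of the rhythms did not pass (log2 size 0.39, edgeR adjusted p = 0.32).

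Cdh11, a type II cadherin of mesenchymal cells (ENSMUSG00000031673, chromosome 8), lay between 34.5 CPM at CT40 and 68.4 at CT28 in Ctrl, with a median of 39.3. Its 3 highest Ctrl libraries were CT28, CT4 and CT8, and the amplitude was 0.39 ± 0.08 with a peak at 4.23 h (edgeR adjusted p = 0.011, and 0.060 without Ctrl CT28). In SCNx it ranged from 32.5 to 59.6 CPM with an amplitude of 0.14 ± 0.10, and the difference of the rhythms did not pass (log2 size 0.36, edgeR adjusted p = 0.24). Of the 5 fibroblast markers, 3 were also rhythmic in Ctrl by edgeR's test, Col1a1 with an amplitude of 0.45 and a peak at 5.02 h, Col3a1 with 0.45 and 3.56 h, and Col1a2 with 0.18 and 8.07 h, while Dcn (adjusted p = 0.38) and Lum (adjusted p = 0.50) were not. The 5 fibroblast markers summed to 482 CPM in Ctrl CT4, 396 in CT8 and 459 in CT28, against a Ctrl range of 339 to 482. They also summed to 432 in Ctrl CT12 and 456 in CT36, where Cdh11 had 38.6 and 38.5 CPM, below its Ctrl median. The part of fibroblasts in the rhythm of Cdh11 was not tested. In bulk tissue, more cells of a type and more RNA per cell cannot be told apart. Cdh5 and Pcdh12, a cadherin and a protocadherin of endothelium, were highest at the same time, Ctrl CT28, with 34.2 and 7.04 CPM, where the 5 endothelial markers were at their Ctrl maximum of 218 CPM. Neither passed the rhythm test in Ctrl (edgeR adjusted p = 0.23 for Cdh5 and 0.14 for Pcdh12).

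The other rhythmic members were clustered protocadherins that peaked in the subjective day. Pcdhac2 (ENSMUSG00000102697), the C-type gene of the Pcdha cluster, lay between 8.34 CPM at CT44 and 17.4 at CT4 in Ctrl, with a median of 12.9, and reached 17.2 on the other day at CT28. Both maxima were in the early subjective day. Its amplitude was 0.43 ± 0.06 with a peak at 5.24 h (edgeR adjusted p = 0.0013), and in SCNx it was 0.16 ± 0.10, with a range of 9.18 to 19.0 CPM. Pcdhgc5 (ENSMUSG00000102543) ranged from 4.67 CPM at CT20 to 17.7 at CT4 in Ctrl and had an amplitude of 0.63 ± 0.14, a peak at 6.88 h and an edgeR adjusted p of 0.014. Its highest library in each group was the one rich in brain transcripts, Ctrl CT4 and SCNx CT32 with 17.7 and 17.8 CPM, and its Ctrl call remained without both. The call was lost without Ctrl CT20 (edgeR adjusted p = 0.063) and without Ctrl CT44. Pcdhga7 (amplitude 0.29 ± 0.05, peak at 7.91 h, edgeR adjusted p = 0.031) and Pcdhga10 (0.28 ± 0.08, 7.05 h, edgeR adjusted p = 0.032) had the smallest amplitudes of the 8, and their Ctrl ranges were 11.9 to 22.4 and 10.8 to 20.3 CPM. Both were lowest at CT44. Their calls were the least stable of the 8: that of Pcdhga7 was lost in 7 and that of Pcdhga10 in 10 of 34 alternative fits, both among them without Ctrl CT44 (edgeR adjusted p = 0.13 each), and that of Pcdhga10 also with Ctrl alone. For none of these 4 genes did the difference between the groups pass (edgeR adjusted p from 0.25 to 0.72).

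Fitted peaks in Ctrl lay from 4 to 10 h after CT0 for 6 of the 8 rhythmic members and for 39 of all 50, a share of 78%, beside 31.7% of the 1459 rhythmic genes and 31.5% of all genes tested. This window was set after the values were seen, and the members share the same 12 libraries. Ctrl CT4, rich in brain transcripts, lies in the window and was the highest Ctrl library for 20 members, 40% beside 13.2% of the genes tested. Cdh4, Cdh13 and Pcdh19 count among these 20, but they reached the minimum in Ctrl only through that library. The peaks were not counted without Ctrl CT4, so its part in the share of 78% was not tested. The exceptions among the rhythmic members were Cdh3 near subjective dawn and Cdh19 near subjective dusk. The median amplitude in Ctrl was 0.27 over the members and 0.11 over all genes tested. Without Ctrl CT4 and SCNx CT32 it was 0.22 over the 47 members left and 0.11 over all genes tested.

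**Figure D2:**
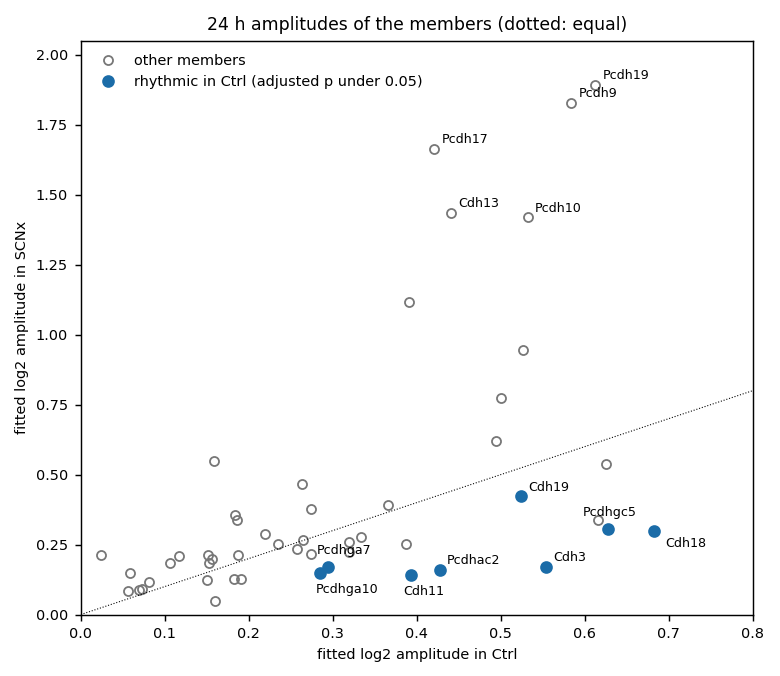
Fitted log2 amplitude of the 24 h curve in SCNx (y axis) against that in Ctrl (x axis) for the 50 members, with filled points for the 8 rhythmic in Ctrl and a dotted line where both are equal. All 8 lay below the line, but they were chosen by their rhythm in Ctrl, which favours this place. The difference of the rhythms passed only for Cdh3 and Cdh19. The members highest on the y axis were Pcdh19 (1.89), Pcdh9 (1.83), Pcdh17 (1.66), Cdh13 (1.44) and Pcdh10 (1.42). Pcdh19 and Cdh13 reached the minimum in SCNx only through SCNx CT32.

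The members with the largest fitted amplitudes in SCNx were those that were high in SCNx CT32. Of the 50 members, 42 had their highest SCNx value in that library, 84% beside 36% of the genes tested, and 23 were at least 2-fold above the median of the other SCNx libraries, 46% beside 9.43%. Cdh4, Cdh13 and Pcdh19 count in both shares, but they reached the minimum in SCNx only through this library. Their high values there thus follow from the choice of members and are no separate result. Pcdh19, coding for a delta-2 protocadherin of neurons that pairs with Cdh2, had 27.8 CPM in SCNx CT32 and at most 1.19 in the other 11 SCNx libraries, whose median was 0.80. Cdh13 had 24.7 CPM there against at most 1.86, Pcdh17 had 56.2 against at most 3.36, Pcdh9 had 24.4 against at most 2.86, and Pcdh10 had 46.1 against at most 3.68. These 5 genes, all known from neurons or glia, were 19.8-fold to 34.6-fold above the median of the other SCNx libraries. The neuron and astrocyte markers were at their SCNx maxima in the same library, 457 and 716 CPM, and their part in these values was not tested. Cdh2, Cdh4, Cdh6, Cdh10 and Pcdh1 were also highest in SCNx CT32, with 66.9, 9.68, 10.5, 9.63 and 39.7 CPM. Cdh3 and Pcdhgc3, the members with the highest level per kb, did not follow this: Cdh3 had 92.0 CPM and Pcdhgc3 210.1 in that library, below their SCNx medians of 106 and 227.

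Ctrl CT4 was at least 2-fold above the median of the other Ctrl libraries for 11 members, 22% beside 5.17% of the genes tested. Of these 11, 10 were so in both Ctrl CT4 and SCNx CT32, which is 90.9% of the 11 and 43.5% of the 23 in SCNx CT32. The overlap over all genes was not counted. Cdh4, Cdh13 and Pcdh19 count among the 11, the 10 shared and the 20 given below. However, they reached the minimum in Ctrl only through Ctrl CT4. Their high values there thus follow from the choice of members and are no separate result. Cdh24, Pcdhb18 and Pcdhga1 were among the 23 with ratios of 2.81, 2.36 and 2.25 and had 0.88, 0.94 and 0.88 in Ctrl CT4. Ctrl CT4 was the highest Ctrl library for 20 members, 40% beside 13.2% of the genes tested, among them Pcdh10 with 10.4 CPM, Pcdh9 with 5.57, Pcdh17 with 5.06, Cdh13 with 3.73 and Pcdh19 with 3.66. Cdh1 was also highest there, with 20.3 CPM where the next highest in Ctrl was 9.66. Without Ctrl CT4 and SCNx CT32, Cdh4, Cdh13 and Pcdh19 fell under the minimum, and 5 of the remaining 47 members had an unadjusted p under 0.05 for a rhythm in SCNx, 10.6% beside 14.2% of the genes. The count of members rhythmic in Ctrl was then 10, the same 8 with Pcdhga3 and Pcdhga9, and the share over all genes in this fit is not given here.

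**Figure D3:**
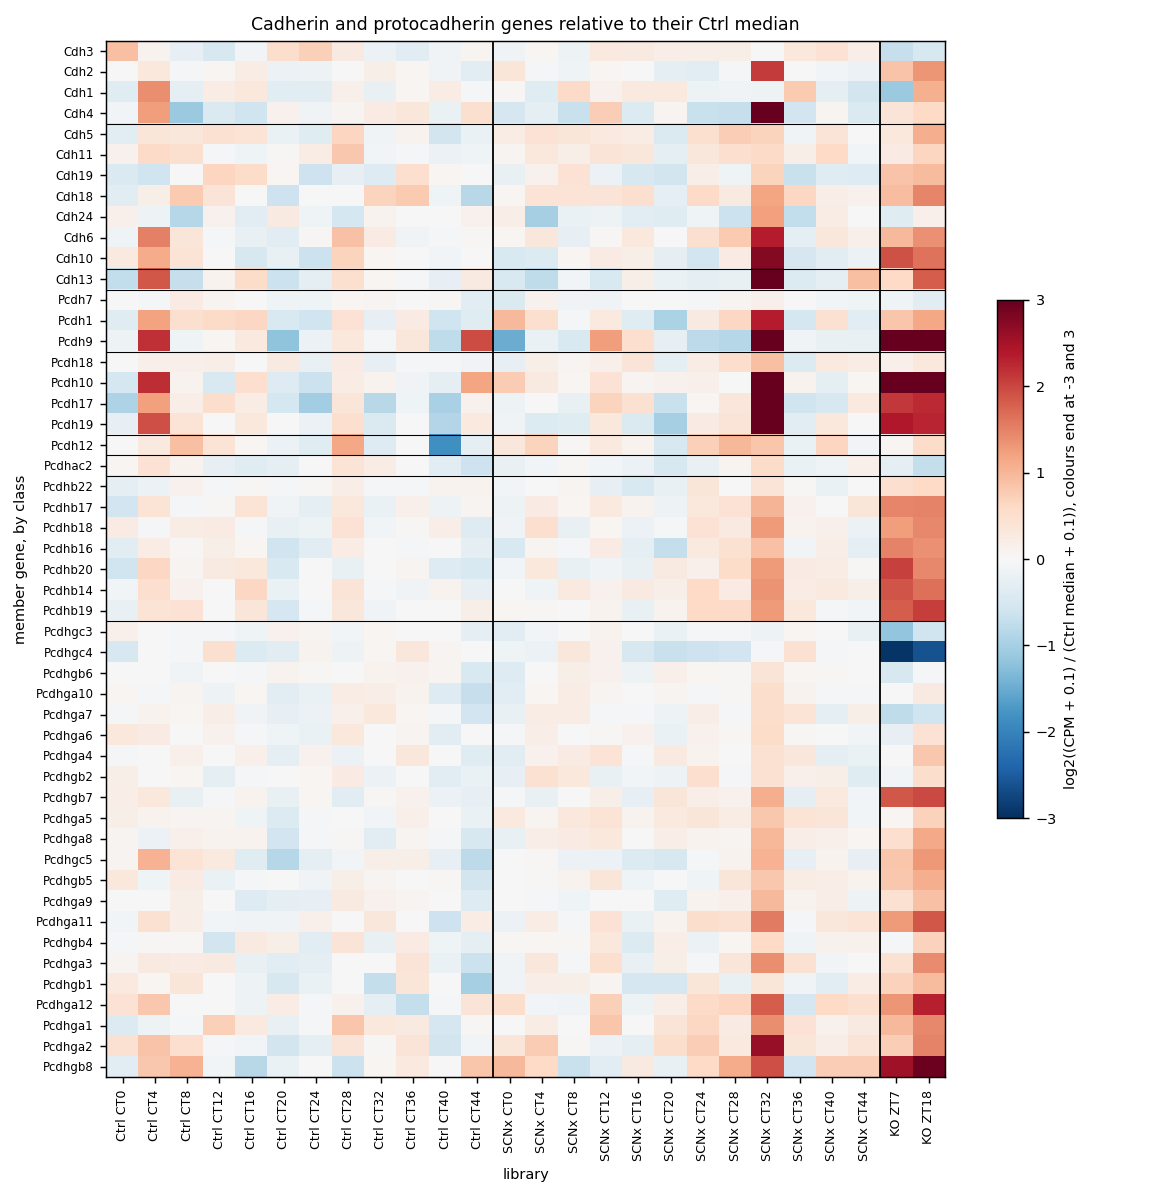
Each row is a member, grouped by class and ordered within a class by CPM per kb, each column a library, and colour gives the log2 ratio of its CPM to the Ctrl median of that gene, with 0.1 added to both. The columns SCNx CT32 and both KO columns are red for most rows, with Pcdhgc3, Pcdhgc4 and Pcdhga7 blue in KO.

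The next question was whether the lesion changed the mean level of the members, taken over the 12 times of each group. No member passed: the smallest adjusted p of edgeR's quasi-likelihood test was 0.27, and 0% of the 13697 genes tested passed. DESeq2 also called 0 members. An unadjusted p under 0.05 was found for 5 members, all higher in SCNx, 10% beside 4.78% of the genes, and for 0 members lower in SCNx, beside 4.58% of the genes. These 5 were Pcdhga5 (log2 fold change 0.33 ± 0.07, SE), Pcdhga8 (0.29 ± 0.10), Pcdh17 (1.57 ± 0.60), Pcdh19 (1.37 ± 0.65) and Pcdhga2 (0.59 ± 0.28). Pcdh19 was a member only through its values in SCNx CT32 and Ctrl CT4. Pcdhga5 ranged from 5.37 to 8.10 CPM in Ctrl with a median of 7.20 and from 6.84 to 12.7 in SCNx with a median of 8.91, so the groups overlapped.

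In all, 42 of the 50 members had a fitted level above that of Ctrl in SCNx, 84% beside 56.5% of the genes tested, with a median log2 fold change of 0.19 beside 0.01. Without SCNx CT32, 31 of 47 members did, 66.0% beside 51.9%, and the median was 0.05. Without both SCNx CT32 and Ctrl CT4, 36 of 47 did, 76.6% beside 53.3%, and the median was 0.10. The log2 fold change of Pcdh17 was 0.00 ± 0.26 without SCNx CT32 and 0.20 ± 0.22 without both libraries. Pcdh10 had -0.27 without SCNx CT32 and 0.11 without both, Pcdh9 had -0.73 and -0.41, and Cdh10 had -0.35 and -0.21, none of which passed. Pcdhga2 had 0.20 ± 0.18 without SCNx CT32 and 0.29 ± 0.17 without both, and Pcdh19 was under the minimum in both fits. An unadjusted p under 0.05 then remained for Pcdhga5 and Pcdhga8 in each of these fits. Pcdhga5 had 0.28 ± 0.07 without SCNx CT32 (unadjusted p = 0.00032, edgeR adjusted p = 0.20) and 0.29 ± 0.07 without both, and Pcdhga8 had 0.21 ± 0.08 and 0.20 ± 0.08. On the lower side the 5 smallest p belonged to Pcdhgc3 (log2 fold change -0.06 ± 0.05), Pcdhgc4 (-0.10 ± 0.12), Pcdh7 (-0.04 ± 0.06), Cdh19 (-0.11 ± 0.16) and Pcdhac2 (-0.04 ± 0.11), with edgeR adjusted p from 0.68 to 0.95.

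**Figure D4:**
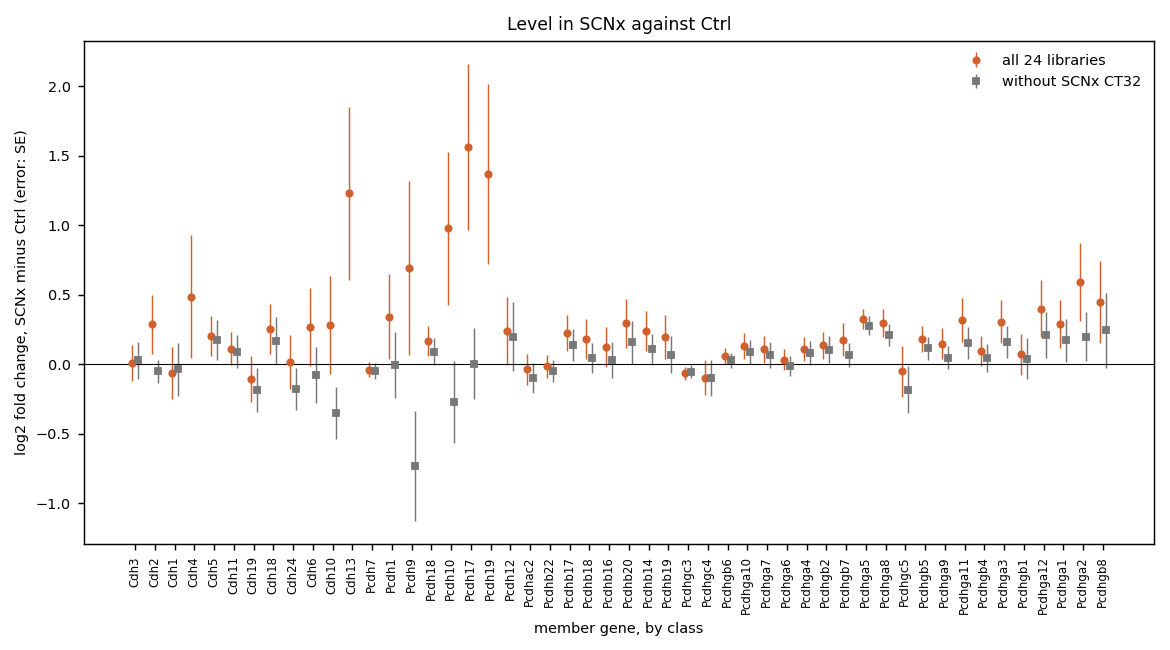
Log2 fold change of SCNx against Ctrl (y axis, bars give the SE) for each member (x axis, by class), from all 24 libraries (orange) and without SCNx CT32 (grey, 47 members). Pcdh17, Pcdh19 and Cdh13 were highest from all libraries, with 1.57, 1.37 and 1.23, and Pcdh17 was at 0.00 without SCNx CT32. Pcdh19 and Cdh13 reached the minimum in SCNx only through SCNx CT32.

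The cluster sums do not depend on how reads were divided between the genes of a cluster. The 22 Pcdhg genes summed to 458 ± 31.2 CPM in Ctrl and 461 ± 45.7 in SCNx (SD, n = 12 each), the 22 Pcdhb genes to 25.0 ± 2.94 and 27.2 ± 8.998, and the 14 Pcdha genes to 13.5 ± 3.38 and 14.7 ± 7.91. The log2 fold changes were 0.01 ± 0.04, 0.11 ± 0.12 and 0.10 ± 0.18 (SE), with edgeR adjusted p of 0.97, 0.79 and 0.90. All 3 sums were highest in SCNx CT32, at 555, 54.1 and 39.4 CPM. Without SCNx CT32 the log2 fold changes were -0.01, -0.01 and -0.12 in the same order, and none passed.

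In Ctrl the Pcdhg sum had a 24 h amplitude of 0.10 ± 0.04 with a peak at 6.49 h and an edgeR adjusted p of 0.051, just short of the threshold, and the Pcdha sum had 0.45 ± 0.06, 5.15 h and an adjusted p of 0.081. Without SCNx CT32 both passed, with adjusted p of 0.040 and 0.00018 by edgeR, and the rhythm of the Pcdha sum then also differed between the groups (edgeR adjusted p = 0.043). Without Ctrl CT4 and SCNx CT32 the adjusted p of edgeR was 0.067 for Pcdhg and 0.00089 for Pcdha, and 0.084 for the difference in Pcdha. The Pcdha sum consisted mostly of Pcdhac2, with 94.9% ± 4.06 in Ctrl (SD, n = 12), and the other 13 Pcdha genes together had a median of 0.47 CPM. These 13 genes had 3.29 CPM in Ctrl CT4 and 20.4 in SCNx CT32, against at most 1.09 and 1.77 in the other libraries of each group, and 11.8 and 15.3 in KO. The Pcdhb sum showed no rhythm in Ctrl (amplitude 0.15 ± 0.06, edgeR adjusted p = 0.61).

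Within the Pcdhg cluster, the 3 type C genes gave 297 ± 21.4 CPM in Ctrl and 282 ± 26.8 in SCNx, the 12 type A genes 90.5 ± 10.1 and 103 ± 20.9, and the 7 type B genes 70.7 ± 5.93 and 76.0 ± 11.3. Pcdhgc3 alone made up 50.8% ± 2.78 of the cluster in Ctrl and 48.3% ± 3.81 in SCNx (SD, n = 12 each), with 37.8% in SCNx CT32 and 47.2% to 56.5% in Ctrl. Pcdhgc4, whose loss is known to affect the survival of neurons, made up 12.1% ± 2.31 and 11.2% ± 2.42. The remaining type A genes had means from 1.44 (Pcdhga2) to 13.8 CPM (Pcdhga6) in Ctrl beside Pcdhga7 with 17.8 and Pcdhga10 with 16.7, and the type B genes from 1.14 (Pcdhgb8) to 37.7 (Pcdhgb6). In the Pcdhb cluster Pcdhb22 alone made up 30.9% ± 3.26 of the sum in Ctrl and 28.9% ± 4.40 in SCNx, and the means of the other 6 members ranged from 1.09 (Pcdhb20) to 2.14 CPM (Pcdhb18) in Ctrl. All 7 Pcdhb members and 19 of the 22 Pcdhg members were highest in SCNx CT32 within SCNx.

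**Figure D5:**
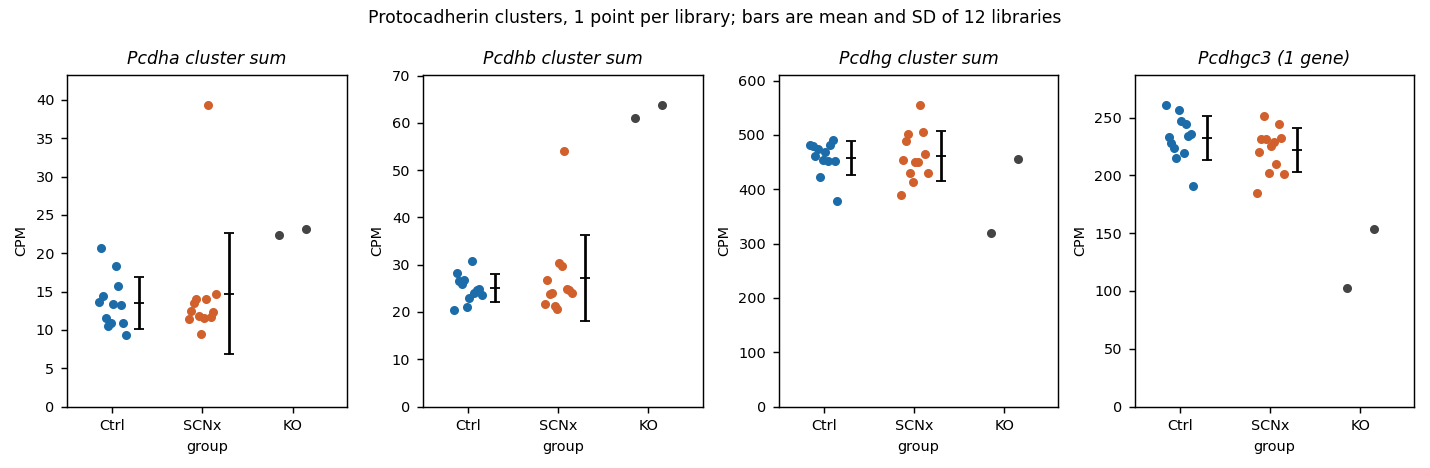
CPM (y axis) of the cluster sums Pcdha, Pcdhb and Pcdhg and of Pcdhgc3 by group, with 1 point per library and the mean and SD of 12 libraries beside Ctrl and SCNx. KO lay above the Ctrl range for Pcdhb (61.004 and 63.8) and below it for Pcdhgc3 (103 and 154).

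KO was described only, with 1 mouse per time and no test. Bmal1 (Arntl in the file) had 10.6 CPM at ZT7 and 9.36 at ZT18, within the Ctrl range of 2.11 to 40.3, and this count covers the whole gene, so reads outside the deleted part are included and it checks nothing. Of the 50 members, 25 were above the highest Ctrl library in both KO mice, 50% beside 16.9% of the genes tested, and 3 were below the lowest, 6% beside 40.4%. The members below were Pcdhgc4 with 7.12 and 8.97 CPM (Ctrl 39.6 to 77.8), Pcdhgc3 with 103 and 154 (191 to 261) and Pcdhga7 with 10.5 and 11.7 (11.9 to 22.4). Pcdhgc3 made up 32.1% and 33.8% of the Pcdhg sum there and Pcdhgc4 2.22% and 1.97%. Cdh3 had 57.2 and 66.8 CPM, below and at the low end of its Ctrl range.

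Among the members above the Ctrl range, Pcdh9 was farthest with 36.6 and 45.0 CPM against at most 5.57, and Pcdhgb7 had 28.1 and 30.6 against at most 9.54. All 7 Pcdhb members were in this set, and their cluster sum was 61.004 and 63.8 CPM against 20.5 to 30.8 in Ctrl. So were Cdh2, with 28.1 and 39.1 CPM, Cdh10, Cdh18, Cdh19, Pcdh10, Pcdh17 and Pcdh19. Brain markers were high in both KO libraries and epithelial markers low, as given above, and their part in these levels was not tested.

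Values at ZT7 and ZT18 were set beside the Ctrl curve at the same hours, as log2 ratio of day to night, with an exact 95% interval for counting error only. Cdh3 had -0.22 in KO (-0.35 to -0.10) and -0.24 on the Ctrl curve, and Cdh19 had -0.10 (-0.39 to 0.18) and -0.38. Pcdhac2 had 0.44 (0.12 to 0.77) in KO and 0.80 on the Ctrl curve. For the other 5 rhythmic members the KO ratio was below 0, from -0.55 for Cdh18 to -0.16 for Pcdhga7, where the Ctrl curve gave values above 0, from 0.54 for Pcdhga7 to 1.24 for Pcdhgc5. The counting interval of Pcdhga7 (-0.45 to 0.13) included 0. A ratio below 0 was found for 43 of all 50 members in KO, 86% beside 63.8% of the 13584 genes tested with counts in both KO libraries, so this sign was not particular to the rhythmic members. These hours lie close to the crossing of the mean for Cdh3, whose curve peaks at 23.7 h, so they show little of its rhythm. Cdh1 differed most between the KO mice, with 3.501 and 16.2 CPM.

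Lists of genes that work with cadherins were drawn up by role: catenins, other junction proteins, atypical cadherins, factors of protocadherin promoter choice, protocadherin signalling, proteolysis and repressors of Cdh1. Of 89 listed genes 74 were tested, and 4 had a 24 h rhythm in Ctrl, 5.41% beside 10.7% of all genes. Ptk2b, coding for the kinase PYK2 that binds Pcdha and Pcdhg tails, had an amplitude of 0.47 ± 0.05 and a peak at 23.8 h (edgeR adjusted p = 6.1e-05), and it alone of the 74 differed in rhythm between the groups (edgeR adjusted p = 0.0066). Its mean was 77.3 ± 18.4 CPM in Ctrl and 77.1 ± 9.38 in SCNx. The others were Cyfip1 of the WAVE complex (amplitude 0.13 ± 0.03, peak at 8.64 h), Actn1, an actin crosslinker (0.26 ± 0.07, 14.8 h), and Mmp14, a membrane protease (0.12 ± 0.04, 23.4 h), with edgeR adjusted p of 0.017, 0.025 and 0.048. Of the 9 catenins tested, 0 passed in Ctrl, and Ctnnb1 (beta-catenin) had an amplitude of 0.09 ± 0.02 (edgeR adjusted p = 0.16) at 566 ± 26.4 CPM.

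In SCNx 0 of the 74 passed the rhythm test with edgeR's quasi-likelihood test, and the smallest adjusted p belonged to the calsyntenins Clstn3 (0.15), Clstn2 (0.16) and Clstn1 (0.17). No partner gene differed in level between SCNx and Ctrl, while 11 had an unadjusted p under 0.05, 14.9% beside 9.37% of all genes tested in either direction. The smallest were those of Aph1a, a subunit of gamma-secretase (log2 fold change -0.15 ± 0.05, edgeR adjusted p = 0.38), Stag1 of cohesin (0.16 ± 0.06, adjusted p = 0.44) and Fat4, an atypical cadherin (0.56 ± 0.22, adjusted p = 0.47). For comparison, all 13 clock genes listed were rhythmic in Ctrl by edgeR's test and 11 differed in rhythm between the groups, with a median amplitude of 1.27 in Ctrl, above the 0.68 of Cdh18.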

How the data were processed

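Libraries were made by the authors with KAPA mRNA HyperPrep (Ctrl, SCNx) or the Smarter Stranded totRNA low input kit (KO). Reads were mapped by the authors to GRCm39 (nf-core/rnaseq, STAR), and Salmon 1.9.0 estimated counts per gene were deposited without normalization. Whether counting used strand is not given in the sources used here. Counts were rounded, and the 13697 genes reaching a mean of 1 CPM in both Ctrl and SCNx were fitted in edgeR 4.0.16 (R 4.3.3), with TMM factors of 0.955 to 1.08. Levels used a mean per group, and rhythms a mean, cosine and sine per group. Cluster sums were fitted in a table of 13670 rows. The p-values printed are from quasi-likelihood F tests with Benjamini-Hochberg adjustment over all rows, at 0.05. Calls of DESeq2 and limma-trend come from their own tests. The spread used is that between single mice, and in the level fit it also holds any change over the day. CPM values use plain library totals, and the depth of the KO libraries was lower. On simulated data, edgeR called 81% of level changes of 0.5 on the log2 scale, and in Ctrl 47% of amplitudes of 0.3 and 81% of 0.6, and 21% and 67% of rhythm differences of these sizes. The changed genes were drawn from all genes tested, not from the members. The spread came from the rhythm fit, and the level case held no daily change. The share for levels can thus be too high for the real level fit.

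Named are the members called, those with the 5 smallest p per test and direction, the 12 highest means, the 5 largest ratios of a library to its group median and members named by the study, plus partner genes called or with the 3 smallest p. Genes were grouped by role from textbook knowledge. Members and lists were chosen with earlier results of these data known. Alternatives were DESeq2 1.42.0, limma-trend (limma 3.58.1), other normalization and minimums, circadian time as a block, a group alone and libraries left out. Python 3.11.15 and matplotlib 3.10.9 made tables and figures.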

Additional observations from a re-analysis of the deposited data

Results flagged for a closer look

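The 24 h rhythm differed between Ctrl and SCNx for Cdh3, with a log2 size of the difference of 0.61 (edgeR's quasi-likelihood test, adjusted p = 0.0011), and for Cdh19, with 0.85 (adjusted p = 0.0082), each tested directly over the 12 mice of each group. No search for outlying samples was made beyond the marker sums and the fits with libraries left out.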

How the results depend on the processing

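No member was called for level, and Cdh3 and Cdh19 kept the call for a rhythm difference, under each alternative run (Pcdhga10 joined them without Ctrl CT4, Ctrl CT16, SCNx CT0 and SCNx CT32). The rhythm calls of Cdh3, Cdh18, Cdh19 and Pcdhac2 in Ctrl remained in each fit, while Cdh11 lost its call in 1, Pcdhgc5 in 2, Pcdhga7 in 7 and Pcdhga10 in 10 of 34. Members rhythmic in Ctrl numbered 5 to 13 when 1 library was left out: 5 without Ctrl CT20, CT28 or CT44 and 13 without SCNx CT32. Without Ctrl CT16 and SCNx CT0, rich in liver genes, they numbered 9, the same 8 with Pcdh7. DESeq2 called 5 members rhythmic in SCNx (Cdh10, Cdh19, Pcdh17, Pcdh19 and Pcdh9). Shares over all genes are not given for these alternative fits. Rhythmic cluster sums in Ctrl numbered 1 with limma-trend, with only members summed, without Ctrl CT4 and SCNx CT32 and, added after the data were seen, without these and the libraries rich in liver genes. They numbered 0 to 2 with 1 library left out, and differences of their rhythm 0 to 1. Log2 fold changes crossed 0, none passing, for Pcdh19 (-0.43 with DESeq2, -0.015 with circadian time as a block), the Pcdha sum (-0.037 with only members summed, -0.044 without Ctrl CT4 and SCNx CT32, -0.057 without all 4) and the Pcdhg sum (-0.0026 without Ctrl CT4 and SCNx CT32). With 1 library left out they ranged from -0.096 to 0.013 for Pcdhac2, -0.12 to 0.17 for Pcdha, -0.011 to 0.15 for Pcdhb and -0.011 to 0.024 for Pcdhg. The causes were not tested. With circadian time as a block, which pairs mice killed at equal times, 0 members passed for level and 5 had an unadjusted p under 0.05, as many as without it.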
